A study of Mus musculus with 10 samples.

Results

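The 10 genes described here carry the insulin signal into the liver cell or respond to it: the insulin receptor gene Insr, the adaptor genes Irs1 and Irs2, the transcription factor genes Foxo1 and Foxo3, the FOXO-responsive gene Depp1, and the IGF binding protein genes Igfbp1, Igfbp2, Igfbp3 and Igfbp4. They were taken by symbol from a table of 23056 gene symbols, in which 10 of 10 were found. The samples were 6 livers of wild-type (WT) mice and 4 livers of mice with the genotype IFRD1-KO (KO, knockout of Ifrd1, a transcriptional co-regulator gene), all collected 12 hours after surgical removal of the left lateral and median lobes, which sets the remnant regenerating. Every animal had undergone the surgery and had free access to food, and no unoperated liver was analysed here. The labels do not state strain, age, or the cells in which Ifrd1 was disrupted. The labels do not name the animal behind each library, so each p-value speaks of the spread among libraries, which may be technical.

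Insulin binds its receptor at the hepatocyte surface, the receptor phosphorylates IRS adaptors, and these recruit PI3-kinase, which activates AKT. AKT phosphorylates FOXO factors and moves them out of the nucleus. In the fasted liver, with little insulin, nuclear FOXO factors drive genes of glucose output and of the fasting state, among them Igfbp1, and also Irs2, which makes the cell more receptive to insulin. IGF binding proteins are secreted carriers that hold IGF1 and IGF2 in the circulation and regulate their access to receptors. The liver is their main source, together with its endothelial, Kupffer and stellate cells.

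Igfbp1 is the textbook case of a gene with an insulin response element, a pair of inverted repeats near the start site that FOXO factors bind. The element was located in the RefSeq promoter table (GRCm38.p6), which held 9 of the 10 genes in 10 windows of 300 bases (250 before and 50 after the start). The missing entry was Insr. The bases before the Igfbp1 start are shown because the element lies in them, and those before the Depp1 start because Depp1 had the largest fold change of the 10 genes. None of the motifs described in this paragraph was found in the Depp1 window, and looser forms of them were not searched. Capitals mark the paired element, CAAAACA and then ATTTTG after 5 bases of any kind, whose spacing was taken from the known Igfbp1 element. Both run from 5′ to 3′ on the plus strand and end at the earlier of the RefSeq and GENCODE starts.
Igfbp1, chr11:7197537-7197781: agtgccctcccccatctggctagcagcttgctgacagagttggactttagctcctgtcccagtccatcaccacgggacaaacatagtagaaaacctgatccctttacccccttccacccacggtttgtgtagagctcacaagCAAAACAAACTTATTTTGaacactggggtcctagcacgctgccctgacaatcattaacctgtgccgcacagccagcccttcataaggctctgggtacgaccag
Depp1, chr6:116650434-116650608: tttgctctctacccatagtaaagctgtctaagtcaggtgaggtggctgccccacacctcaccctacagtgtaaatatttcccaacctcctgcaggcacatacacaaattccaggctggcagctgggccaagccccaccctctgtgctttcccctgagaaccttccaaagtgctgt
The Igfbp1 element began 108 bases before the RefSeq start and covered chr11:7197679-7197696. Read on both strands, the paired element was in 2 of 32817 promoter windows (0.00609%), those of Igfbp1 and Idi2. The single repeat CAAAACA, which the paired element contains, or its reverse TGTTTTG, was in 6.29% of windows. Of the 9 genes it was in Igfbp1, Irs1 (with 2 copies) and Irs2. The FOXO core GTAAACA, or its reverse TGTTTAC, was in 3.65% of all windows and in none of the windows of these 9 genes. Such a match describes the letters and is not evidence of binding, and no match says only that these letters are not in this window. The matches in the adaptor genes are shown with their neighbouring bases, on the minus strand, with the repeat in capitals.
Irs1, chr1:82291532-82291561: gctccgtcacgTGTTTTGctcctctggagt
Irs1, chr1:82291453-82291482: cagccgccgctTGTTTTGgttggggctctc
Irs2, chr8:11008948-11008977: gagtcacgtgtTGTTTTGctcttagttcag

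Before the genes are compared, the libraries are described briefly. Totals lay between 12307446 and 17098012 counts. Ifrd1 itself (chromosome 12, 40201567 to 40248504) lay between 13.0 and 22.6 CPM (counts scaled to a common, TMM-normalised library size) in KO and between 40.2 and 81.7 CPM in WT, so reads remained in each KO library. Hepatocyte markers were abundant in every library: the 9 markers, Alb among them, summed to 39792 to 84807 CPM in WT and 51476 to 61573 CPM in KO. Of the 9, 1 was called, Tat, which was lower in KO. The 10 Kupffer cell and macrophage markers summed to 59.3 to 403 CPM in WT and 45.2 to 84.6 CPM in KO, with 10 of 10 fold changes below 0 and 0 called. The 6 neutrophil markers summed to 9.46 to 177 CPM in WT and 6.45 to 17.3 CPM in KO, with 0 of 4 tested called. The highest values of both lists were those of WT replicate 2. Of 10 sinusoidal endothelial markers, Fcgr2b was called, higher in KO, and of 10 stellate markers 0 were called. Their sums were 174 to 345 and 143 to 273 CPM in WT, against 204 to 325 and 190 to 224 CPM in KO. The 7 lymphocyte markers summed to at most 2.16 CPM. No listed marker found in the table was at 0 in every library.

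Of the 10 genes, 2 rose in KO livers, Insr and Depp1, and 0 fell. Over all 13688 genes tested 1.33% passed the same test (0.563% higher and 0.767% lower), the quasi-likelihood test of edgeR at a Benjamini-Hochberg adjusted p of 0.05 over all genes, given from here on as edgeR adjusted p. All 10 genes passed the filter on low counts. The fold changes of 7 lay above 0 and of 3 below, with a median log2 fold change of 0.27 against -0.02 over all genes tested. The groups did not overlap for 3 of the 10 (Insr, Depp1 and Igfbp4), as for 6.90% of genes tested. At an unadjusted p under 0.05 there were 5 of the 10, against 26.0% of all genes. Depp1 was already known to be among the called genes when the list was drawn up, so these counts describe the list. In bulk liver RNA, fewer cells of a type and less RNA per cell cannot be told apart.

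**Figure D1:**
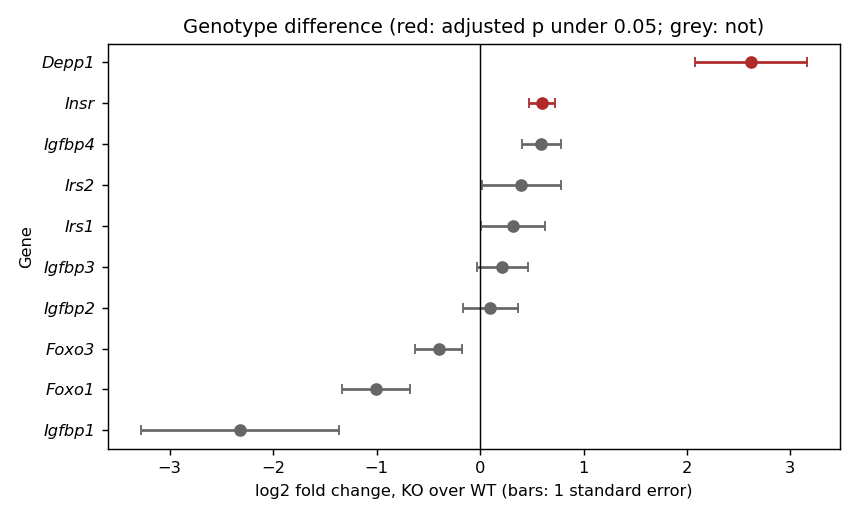
Log2 fold change of KO over WT for each of the 10 genes (points) with 1 standard error on either side (bars), from the fit over all genes with 6 WT and 4 KO libraries. Depp1 (2.62) and Insr (0.60), in red, passed the test, and the error bar of Igfbp1 (-2.32) is the widest.

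How many of the 10 genes were called depended on single libraries. Without WT replicate 4, 4 of the 10 genes were called (Insr, Depp1 and Igfbp4 higher, Foxo1 lower), when 21.4% of all genes were. Without any other single library 0 of the 10 were called. Those fits called few of all genes, from 0 (without KO replicate 1, 2 or 3) to 55 of 13577 (without WT replicate 2). DESeq2 on all libraries called the same 4 genes, with 11.8% of all genes called, and limma-voom called Insr and Depp1, with 2.32% called.

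Insr encodes the receptor itself (chromosome 8, 3122061 to 3279617, minus strand, protein coding). Its level in the WT livers ran from 64.2 CPM through a median of 79.2 to 86.2 CPM, and the KO livers were at 108, 117, 123 and 116 CPM. All 4 KO livers thus lay above all 6 WT livers. The mean rose from 76.6 ± 7.92 CPM (SD, n = 6) to 116 ± 5.92 CPM (SD, n = 4), a 1.52-fold higher level (log2 fold change 0.60, SE 0.13, edgeR adjusted p = 0.0468). An exact permutation test, two-sided and over all 210 assignments of the libraries, gave p = 0.00476, the smallest possible. Insr was also the steadiest of the 10 genes, with a standard deviation of log2 CPM of 0.15 in WT and 0.07 in KO, where the median gene had 0.42 and 0.24. The call was lost without WT replicate 1 (edgeR adjusted p = 0.0894), 2 (0.0640), 3 (0.0682), 5 (0.0866) or 6 (0.0777) and without KO replicate 1 (0.137), 2 (0.149), 3 (0.146) or 4 (0.131), while the log2 fold change stayed between 0.55 and 0.64 over these fits and the one without WT replicate 4 (0.00589). With the replicate number as a block it was 0.63 (edgeR adjusted p = 0.142), and with no filter on low counts the adjusted p was 0.0598.

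**Figure D2:**
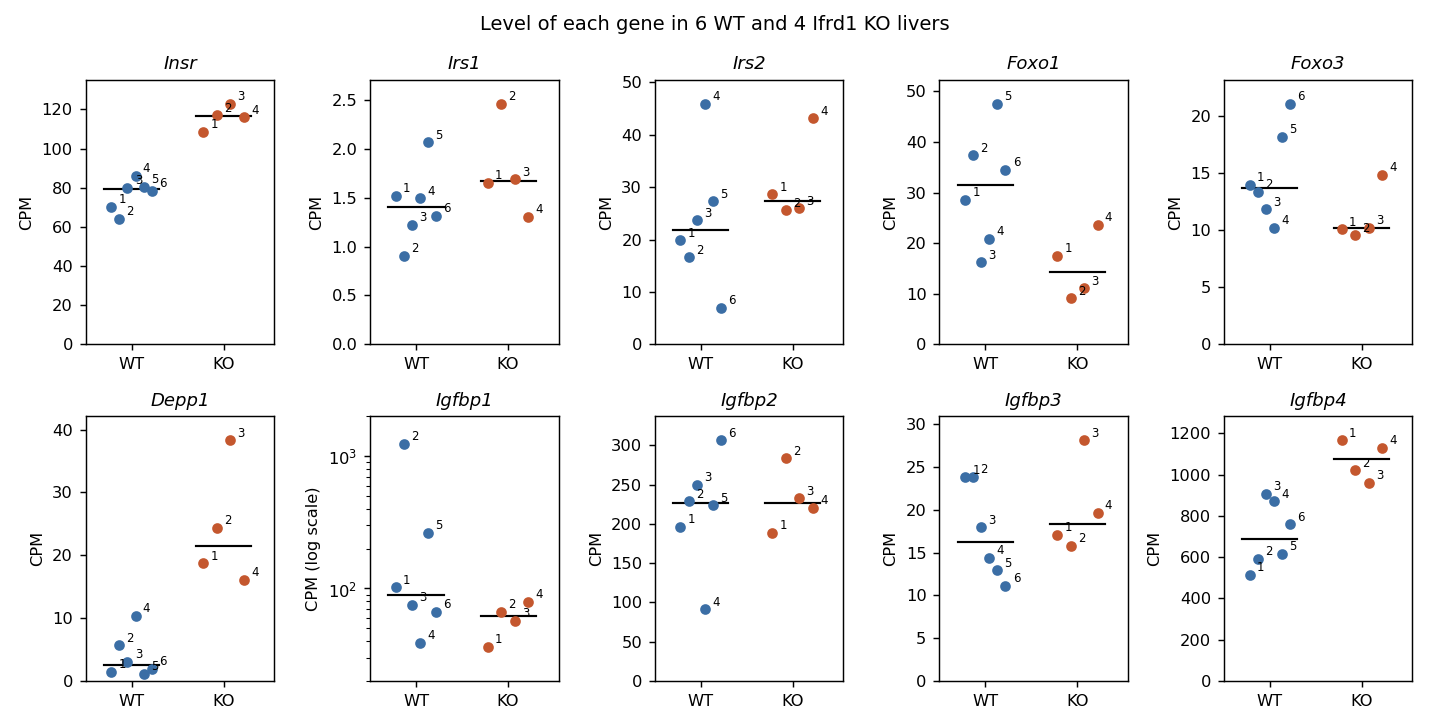
Level of each of the 10 genes in CPM (vertical axis, logarithmic for Igfbp1 and linear from 0 for the others) in 6 WT (blue) and 4 KO (orange) livers, with the replicate number beside each point and the group median as a line. Insr, Depp1 and Igfbp4 do not overlap between the groups, and Igfbp1 reaches 1242 CPM in WT replicate 2.

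The adaptor genes did not pass the test. Irs2, the IRS adaptor most tied to the fed and fasted states of the liver (chromosome 8, 10984681 to 11008458, minus strand), ran in WT from 6.96 CPM through a median of 21.8 to 45.9 CPM and in KO was at 28.6, 25.6, 26.0 and 43.2 CPM. The lowest value was that of WT replicate 6 and the highest that of WT replicate 4, so that the WT range enclosed every KO value. The means were 23.4 ± 13.1 CPM in WT (SD, n = 6) and 30.8 ± 8.33 CPM in KO (SD, n = 4), with a log2 fold change of 0.40 (SE 0.38, edgeR adjusted p = 0.537). Leaving out WT replicate 4 gave a log2 fold change of 0.71. Irs1, the other main adaptor (chromosome 1, 82233101 to 82291416, minus strand), was near the lower limit of what this depth counts, with 12 to 32 reads per library. It ran in WT from 0.907 CPM through a median of 1.41 to 2.07 CPM and in KO was at 1.65, 2.47, 1.69 and 1.31 CPM. The groups overlapped (log2 fold change 0.32, SE 0.31, edgeR adjusted p = 0.536). Its exons share 30.9% of their bases with Gm9747 on the opposite strand, and those of Irs2 share 2.56% with 9530052E02Rik, so both counts are uncertain where strand was not used in counting.

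The FOXO factor genes both had fold changes below 0, and neither passed. Foxo1, the main FOXO factor of hepatocyte glucose output (chromosome 3, 52268336 to 52353221, plus strand), ran in WT from 16.2 CPM through a median of 31.6 to 47.6 CPM and in KO was at 17.5, 9.09, 11.1 and 23.6 CPM. Of the WT livers, 4 lay above the highest KO liver and 2 (replicates 3 and 4) lay within the KO range. The means were 30.9 ± 11.4 CPM in WT (SD, n = 6) and 15.3 ± 6.61 CPM in KO (SD, n = 4), a 2.01-fold lower mean in KO by the fit (SE 0.33 on the log2 scale, edgeR adjusted p = 0.0982). The exact permutation test gave p = 0.0381. Without WT replicate 4 Foxo1 passed (log2 fold change -1.09, edgeR adjusted p = 0.0364), and DESeq2 called it on all libraries (adjusted p = 0.0334). With any other single library left out, the edgeR adjusted p ran from 0.0779 (WT replicate 3) to 0.229 (KO replicate 2). Of its exon bases 7.78% are shared with the antisense gene Gm20402.

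Foxo3 (chromosome 10, 42181841 to 42276755, minus strand), a related FOXO factor, ran in WT from 10.2 CPM through a median of 13.7 to 21.1 CPM and in KO was at 10.1, 9.55, 10.2 and 14.9 CPM. In KO, replicate 4 had the highest level of Foxo1, of Foxo3 and of Irs2, and in WT, replicates 5 and 6 had the highest levels of Foxo3. The groups overlapped, with a log2 fold change of -0.40 (SE 0.22, edgeR adjusted p = 0.275). With the replicate block the log2 fold change was -0.16.

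Depp1, a small FOXO-responsive gene whose product is linked to autophagy and oxidative stress (chromosome 6, 116650609 to 116652794, plus strand), had the largest fold change of the 10. The WT livers ran from 1.12 CPM through a median of 2.50 to 10.3 CPM, and the KO livers were at 18.7, 24.3, 38.3 and 16.1 CPM. Every KO liver lay above every WT liver, and the WT liver nearest to them was replicate 4. The fold was 6.14 (log2 fold change 2.62, SE 0.54, edgeR adjusted p = 0.0476). The exact permutation test gave p = 0.00952. Depp1 lies in an intron of Rassf4, which is on the opposite strand, and the exons of the 2 genes share 0 bases. Rassf4 had means of 1.44 ± 0.44 CPM (WT, SD, n = 6) and 1.34 ± 0.88 CPM (KO, SD, n = 4), below the Depp1 level of each KO library. The call was lost without WT replicate 1 (edgeR adjusted p = 0.0892), 2 (0.0623), 3 (0.0695), 5 (0.0866) or 6 (0.0777), without KO replicate 1 (0.136), 2 (0.148), 3 (0.146) or 4 (0.123), with the replicate block (0.136) and with no filter on low counts (0.0746). The log2 fold change of Depp1 lay between 2.32 and 2.78 over those fits with a library left out, and was 2.47 with the block and 2.62 with no filter. Leaving out WT replicate 4 gave a log2 fold change of 3.19 (edgeR adjusted p = 0.00100).

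Igfbp1, the IGF binding protein gene most sharply controlled by insulin (chromosome 11, 7197782 to 7202546, plus strand), varied most of the 10 genes among the WT livers. The WT livers ran from 38.7 CPM through a median of 88.6 to 1242 CPM, and the KO livers were at 36.1, 66.3, 56.9 and 79.5 CPM. The highest and lowest WT livers differed 32.1-fold and the KO livers 2.20-fold. In WT replicate 2 the level was 1242 CPM and in replicate 5 it was 262 CPM, while 3 WT livers lay within the KO range. The log2 fold change was -2.32 with an SE of 0.96 and did not pass (edgeR adjusted p = 0.159), and without WT replicate 2 it was -0.87 (edgeR adjusted p = 0.327). With limma-voom it was -1.25 and with the replicate block -1.17. The exact permutation test gave p = 0.219. By standard deviation of log2 CPM over the WT libraries (1.81), Igfbp1 had rank 95 from the top among the 13688 genes tested. WT replicate 2 was also the library with the highest summed hepatocyte, Kupffer cell and neutrophil markers (84807, 403 and 177 CPM). The part of this in the Igfbp1 level was not tested.

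Igfbp4, whose product mostly restrains IGF action locally (chromosome 11, 99041244 to 99054392, plus strand), ran in WT from 514 CPM through a median of 687 to 908 CPM and in KO was at 1166, 1021, 961 and 1131 CPM. All KO livers lay above all WT livers. The means were 709.7 ± 160 CPM in WT (SD, n = 6) and 1069.9 ± 95.1 CPM in KO (SD, n = 4), a log2 fold change of 0.59 (SE 0.19), close in size to that of Insr. Over all genes it did not pass (edgeR adjusted p = 0.0936, exact permutation p = 0.0143). It passed without WT replicate 4 (log2 fold change 0.66, edgeR adjusted p = 0.0275) and with DESeq2 (adjusted p = 0.0250). With any other single library left out, the edgeR adjusted p ran from 0.0847 (WT replicate 3) to 0.212 (KO replicate 1).

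Igfbp2 and Igfbp3 differed little between the group means relative to their spread. Igfbp2, a carrier made by hepatocytes (chromosome 1, 72824503 to 72852474, plus strand), ran in WT from 91.4 CPM through a median of 226 to 306 CPM and in KO was at 189, 283, 233 and 221 CPM. WT replicate 4 had the lowest value, and the WT range enclosed every KO value. The log2 fold change was 0.10 (SE 0.27, edgeR adjusted p = 0.845), and its sign turned without WT replicate 4 (-0.056) or KO replicate 2 (-0.012). Igfbp3, the main carrier of IGF1 in blood and in liver a product chiefly of cells other than hepatocytes (chromosome 11, 7206086 to 7213923, minus strand), ran in WT from 11.1 CPM through a median of 16.2 to 23.9 CPM and in KO was at 17.1, 15.8, 28.1 and 19.7 CPM. Its log2 fold change was 0.21 (SE 0.25, edgeR adjusted p = 0.609), and the groups overlapped. KO replicate 3 had the highest Igfbp3 level and also the highest summed endothelial markers of the KO livers (325 CPM). Its Kupffer cell and stellate sums (84.6 and 224 CPM) were the highest of the KO livers too. In WT the highest values fell in different libraries. Replicates 5 and 6 had the highest endothelial sums (345 and 334 CPM) and the lowest Igfbp3 levels. Replicates 1 and 2, with the highest Igfbp3, had sums of 188 and 292 CPM, and replicate 4 was at 14.4 CPM of Igfbp3 with a sum of 200 CPM. Igfbp3 and Igfbp1 are neighbours whose ends face each other across 3539 bases. In WT replicate 2 Igfbp1 was at 1242 CPM, where Igfbp3 was at 23.9 CPM, against 23.8 CPM in replicate 1.

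**Figure D3:**
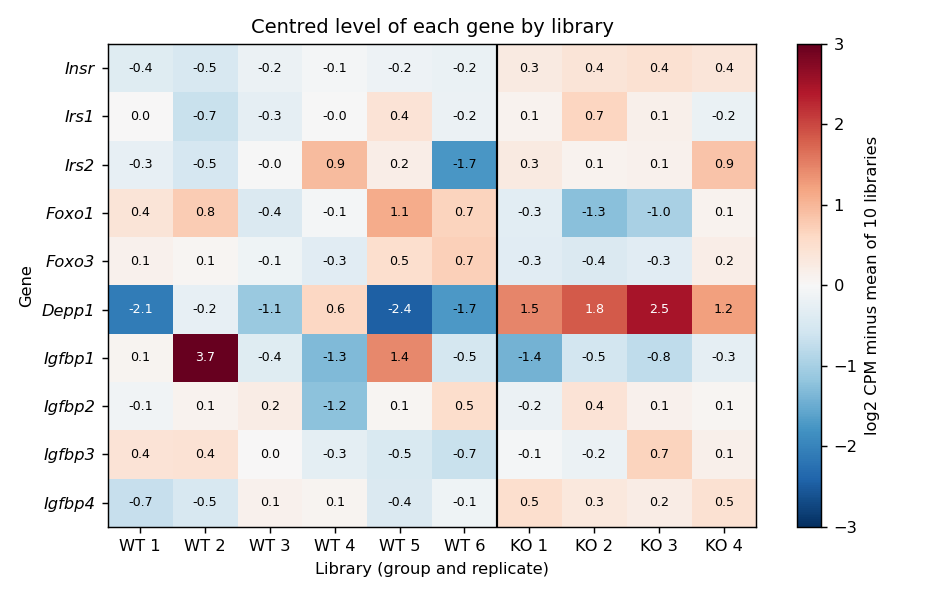
Log2 CPM of each gene (rows) in each library (columns), centred on the gene's mean over the 10 libraries, red above it and blue below it, with the value in each cell and colours ending at -3 and 3. Depp1 is above its mean in each KO liver and in WT replicate 4, and Igfbp1 is far above its mean in WT replicate 2.

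The pattern across libraries was uneven in WT and narrow in KO. The WT livers had the larger standard deviation of log2 CPM for 9 of the 10 genes, as for 80.6% of all genes tested. Foxo1 was the exception (0.57 in WT and 0.62 in KO). WT replicate 4 was closer to the KO average than to that of the remaining WT livers for 7 of the 10 genes, against 69.7% of all genes tested. Being closer to the KO average was thus not particular to these genes. Among the 7 was Igfbp2, for which WT replicate 4 (91.4 CPM) lay below every other WT liver and every KO liver. Replicate 4 had the highest Irs2, the highest Depp1 and the lowest Igfbp1 of the WT livers.

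Scaled by exon length, Igfbp1, Igfbp2 and Igfbp4 had the highest mean levels of the 10 genes in both groups, while Igfbp3 held place 5 in WT and place 6 in KO. The mean levels in WT were 195 ± 308 CPM per kilobase for Igfbp1, 161 ± 36.3 for Igfbp4 and 117 ± 38.6 for Igfbp2 (SD, n = 6), and neighbours in this order overlapped. All 6 values of these 3 genes lay above those of the other 7, which began with Insr at 5.57 ± 0.58 CPM per kilobase and ended with Irs1 at 0.156 ± 0.04. In KO the order was Igfbp4 (242 ± 21.5), Igfbp2 (125 ± 21.3), Igfbp1 (39.2 ± 12.0) and Depp1 (17.9 ± 7.28 CPM per kilobase, SD, n = 4). There Igfbp4, Igfbp2 and Igfbp1 followed each other without overlap, and Igfbp1 and Depp1 overlapped. Depp1 held place 8 of 10 in WT, at 2.89 ± 2.61 CPM per kilobase, and place 4 in KO. In KO Insr, Igfbp3 and Irs2 followed, at 8.44 ± 0.43, 6.44 ± 1.77 and 4.88 ± 1.32 CPM per kilobase, with overlapping neighbours. The lengths are those of all annotated exons and may differ from what the livers express.

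The make-up of the binding protein transcripts showed the same unevenness. Igfbp4 supplied a median of 57.4% of the length-scaled reads of the 4 binding protein genes in KO (range 53.4% to 66.8%) and 41.9% in WT (12.4% to 71.3%). Igfbp1 supplied 5.98% to 12.0% in KO and 9.18% to 75.4% in WT. By raw reads, Igfbp1 took 59.5% of 27588 reads of these genes in WT replicate 2 (95% Wilson interval 58.9% to 60.1%, counting error only) and 2.56% of 25522 reads in KO replicate 1 (2.38% to 2.76%). Igfbp3 stayed at or under 2.56% of length-scaled reads in every library. No test was made on these shares.

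**Figure D4:**
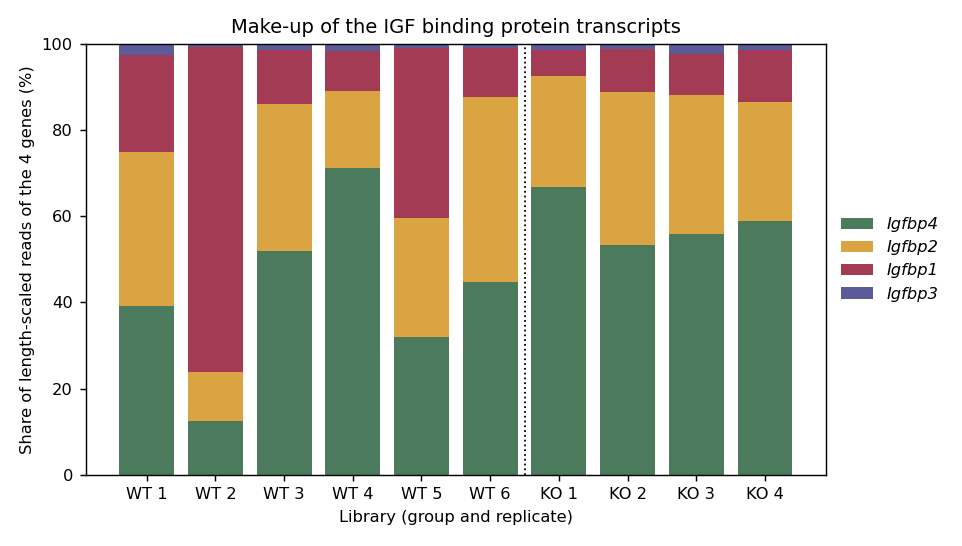
Share of each IGF binding protein gene in the length-scaled reads of the 4 genes (vertical axis, percent) in each of 6 WT and 4 KO libraries (horizontal axis). Igfbp1 supplies 75.4% in WT replicate 2 and at most 12.0% in any KO library.

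Around the 10 genes, the core of the insulin pathway showed no call. Of 42 listed genes of insulin receptor, PI3-kinase and AKT signalling, 41 were tested, 0 rose and 0 fell, and 20 fold changes lay above 0 and 21 below (median log2 fold change -0.02, and -0.02 over all genes). At an unadjusted p under 0.05 there were 8 of 41, against 26.0% of all genes. The smallest p belonged to Deptor, an inhibitor of the mTOR kinase: its WT livers ran from 6.65 CPM through a median of 14.2 to 24.7 CPM and its KO livers were at 34.9, 39.6, 26.9 and 44.4 CPM. The groups did not overlap, with a log2 fold change of 1.23 (SE 0.28, edgeR adjusted p = 0.0541). It passed without WT replicate 4 (edgeR adjusted p = 0.00354), with DESeq2 (adjusted p = 0.00322) and with limma-voom (adjusted p = 0.0426). Gab1, a docking adaptor, and Pik3r3, a regulatory subunit of PI3-kinase, followed with log2 fold changes of 0.53 and 0.70 (edgeR adjusted p = 0.124 and 0.136). Without WT replicate 4, 2 genes of this list rose (Deptor and Pik3r3) and 1 fell (Eif4ebp1, a translation repressor, chosen after its values were seen), 3 of 41 where 21.4% of all genes were called.

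Other FOXO targets and partners did not move one way. Of 34 listed genes, 32 were tested, 0 rose and 0 fell, with 18 fold changes above 0 and 14 below (median log2 fold change 0.06), and 9 had an unadjusted p under 0.05, as did 26.0% of all genes. The smallest p belonged to Cdkn1a, a cell cycle inhibitor gene, Cat, the catalase gene, and Pdk4, a kinase gene that shuts down glucose oxidation in fasting. Cdkn1a averaged 193 ± 89.9 CPM in WT livers and 72.5 ± 22.7 CPM in KO livers (SD, n = 6 and 4; log2 fold change -1.41, edgeR adjusted p = 0.0586). Cat was at 715 ± 124 and 1170 ± 175 CPM, without overlap between the groups (log2 fold change 0.71, edgeR adjusted p = 0.0594). Pdk4 ran in WT from 33.2 CPM through a median of 259 to 906 CPM and in KO was at 20.9, 45.8, 27.7 and 43.7 CPM (log2 fold change -3.22, SE 0.85, edgeR adjusted p = 0.0678). Pdk4, like Igfbp1, was highest in WT replicate 2 and lowest among the WT livers in replicate 4. So were the summed hepatocyte, Kupffer cell and neutrophil markers, and this order was thus not particular to these genes. Without WT replicate 4, 4 of the 32 rose (Cat, Fbxo21, Bnip3 and Bcl6) and 4 fell (Cdkn1a, Pdk4, Pnpla2 and Gadd45a), in a fit that called 21.4% of all genes. DESeq2 on all libraries called 7 of the 32 (3 higher and 4 lower), where it called 11.8% of all genes. The 7 were the genes just named other than Bcl6. The names beyond the 3 with the smallest p were chosen after their values were seen.

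The list of genes that insulin induces held no called gene. Of 9 listed, 8 were tested, and 7 fold changes lay below 0 and 1 above (48.4% of all genes tested lay above 0). The median log2 fold change was -0.57, and 3 had an unadjusted p under 0.05 (26.0% of all genes). Thrsp, a lipogenic gene, ran in WT from 8.23 CPM through a median of 111 to 543 CPM and in KO was at 8.83, 19.5, 11.9 and 10.1 CPM (log2 fold change -3.76, SE 0.95, edgeR adjusted p = 0.0637). Fasn, the fatty acid synthase gene, averaged 251 ± 94.1 CPM in WT livers and 133 ± 51.9 CPM in KO livers (SD, n = 6 and 4; log2 fold change -0.91, edgeR adjusted p = 0.153). When WT replicate 4 was left out, Thrsp and Fasn both fell (edgeR adjusted p = 0.00561 and 0.00859), in a fit that called 21.4% of all genes.

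**Figure D5:**
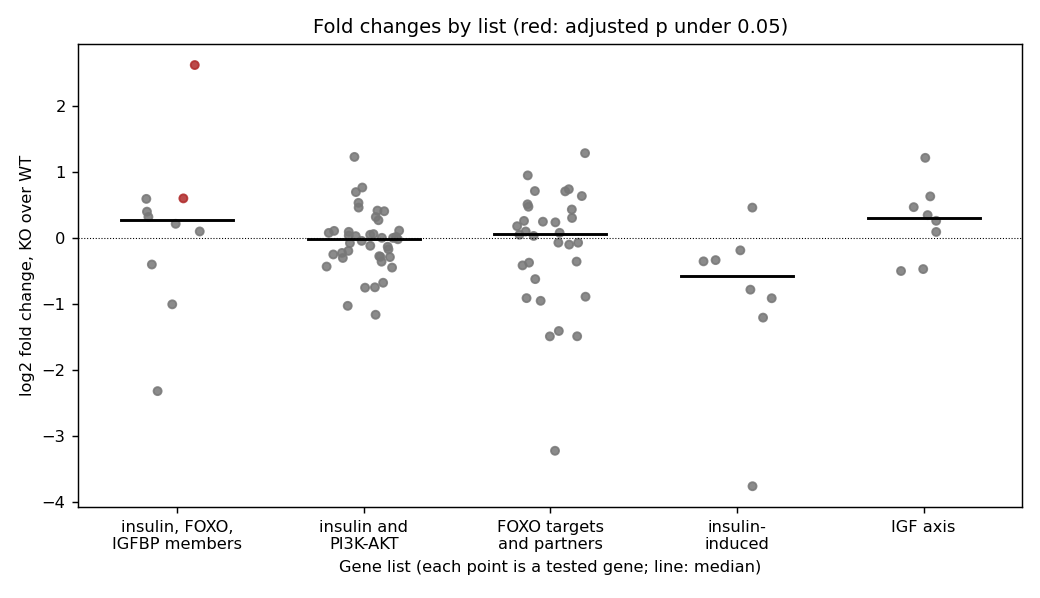
Log2 fold change of KO over WT (vertical axis) of each tested gene in the 10 genes of this account and in 4 lists of related genes (horizontal axis), with the list median as a line and called genes in red. Insr and Depp1 are the only red points, and the FOXO targets spread to both sides of 0.

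The list of the IGF axis held no called gene. Of 14 listed genes, 8 were tested, 6 fold changes lay above 0 and 2 below (48.4% of all genes tested lay above 0), the median log2 fold change was 0.30, and 3 had an unadjusted p under 0.05 (26.0% of all genes). Igfals, the acid-labile subunit that completes the circulating complex of IGF1 and Igfbp3, ran in WT from 4.23 CPM through a median of 8.91 to 31.9 CPM and in KO was at 27.5, 28.1, 20.7 and 33.3 CPM (log2 fold change 1.21, SE 0.45, edgeR adjusted p = 0.129). The groups overlapped only through WT replicate 4, and without it the log2 fold change was 1.82 (edgeR adjusted p = 0.000531). Ghr, the growth hormone receptor gene, averaged 131 ± 48.7 CPM in WT livers and 203 ± 30.9 CPM in KO livers (SD, n = 6 and 4; log2 fold change 0.63, edgeR adjusted p = 0.130), and it too passed without WT replicate 4 (edgeR adjusted p = 0.00521). Igf1 averaged 666 ± 136 CPM in WT livers and 921 ± 105 CPM in KO livers (log2 fold change 0.47, edgeR adjusted p = 0.137). It did not pass without WT replicate 4 (edgeR adjusted p = 0.0535).

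The genes most like Insr, Depp1 and Igfbp1 across the 10 libraries were sought among 12695 genes with a mean of at least 1 CPM, by the mean absolute difference of centred log2 CPM. For Insr these were Setd3, a histidine methyltransferase gene (0.07), Brd3, a chromatin reader gene (0.08), and Chchd10, a mitochondrial protein gene (0.09). Their log2 fold changes were 0.52, 0.55 and 0.45, and none passed (edgeR adjusted p = 0.0638, 0.0689 and 0.0942). For Depp1 they were BC024386 (0.47), the steroid enzyme gene Hsd3b5 (0.47) and the pseudogene Cyp2d37-ps (0.48), of which Hsd3b5 passed (log2 fold change 2.41, edgeR adjusted p = 0.0440). For Igfbp1 they were the transcription factor gene Tead1 (0.41), Cd33 (0.42) and the sphingomyelin synthase gene Sgms1 (0.44). These 3 were at 123, 10.8 and 74.9 CPM in WT replicate 2, against WT means of 42.5, 3.40 and 23.4 CPM. The likeness measure was smallest for Insr, whose level varied least. The search used all 10 libraries of both groups. Fold changes near those of the 3 genes, and high values in WT replicate 2 beside Igfbp1, therefore follow from the choice.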

How the data were processed

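Poly(A) RNA of 10 livers, 6 WT and 4 KO, was sequenced on an Illumina NovaSeq from NEBNext Ultra libraries, per the labels' protocols. The authors deposited raw read counts, 1 row per gene symbol and 1 column per library, of which 0 columns went unused. STAR, HTSeq, DESeq2 and the build mm10 are named per the submitters' processing notes, without versions or roles, and the strand setting is not given in the sources used here. No 2 libraries held identical counts. The members, lists and tests were chosen with earlier results of these data known.

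KO was compared with WT in edgeR 4.0.16 (under R 4.3.3), by its quasi-likelihood test, with TMM normalisation, filterByExpr, robust dispersion and no covariate. It tested 13688 genes holding 99.8% of counts, with Benjamini-Hochberg adjustment over all of them. The standard error is the log2 fold change over the square root of F. Log2 CPM used a prior count of 2. The exact permutation tests, 10 in number, are two-sided, used log2(CPM + 0.5) and are unadjusted. The code was tested on simulated data, with 50 genes changed at each fold. There it called 6% of the 1.5-fold and 42% of the 2-fold changes, so a gene not called may still differ. GENCODE M21 (GRCm38, which is mm10) gave coordinates and exon lengths and held 96.6% of symbols. Named genes were the 10 members, Ifrd1, the called genes of each list (the 3 with the smallest p where fewer than 3 were called) and the 3 genes most like Insr, Depp1 and Igfbp1. Any further list gene is marked as picked with its values in view, and markers and overlapping genes are named as such. Listed genes beyond those in the table or the filter were not analysed here. Results for 2 listed genes are not reported here. The alternatives tried were scaling by RLE or upper quartile, omitting the filter or requiring 1 CPM in at least 4 libraries, limma-voom (limma 3.58.1), DESeq2 1.42.0, no robust prior, a replicate block, and leaving out each library.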

Additional observations from a re-analysis of the deposited data

Results flagged for a closer look

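Igfbp1 in WT replicate 2, at 1242 CPM, stood far from the other WT livers, of which the nearest was at 262 CPM: the gap was 0.81 of the whole WT range, past the 95% critical value of Dixon's ratio for 6 samples. Foxo3 in KO replicate 4, at 14.9 CPM, stood apart from the other KO livers, of which the nearest was at 10.2 CPM, with a gap of 0.87 of the range. These were 2 of 20 groups examined, where chance flags about 1 in 20 if values are normally distributed. The ratio was taken on CPM, not on log2 CPM, and the flags depend on that scale. On centred log2 CPM, Igfbp1 was at 3.68 in WT replicate 2, 1.44 in replicate 5 and -1.31 in replicate 4, the lowest. Dixon's ratio was not tested on the log2 scale.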

How the results depend on the processing

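Over 18 alternatives each, 9 of the 10 genes kept the sign of their fold change in every one. Igfbp2 turned from 0.10 to -0.056 without WT replicate 4 and to -0.012 without KO replicate 2, within a range of -0.056 to 0.22 over the fits that leave out a library. Of the 10 genes, 2 were called with all libraries. This became 4 with DESeq2, 0 with no filter on low counts, and 0 to 4 when a library was left out. Over all genes the 182 calls (77 higher, 105 lower) became 1618 with DESeq2, 318 with limma-voom (231 higher, 87 lower) and 0 to 2893 when a library was left out. The insulin and PI3K-AKT list went from 0 calls to 1 with no filter, with DESeq2 and with limma-voom, and to 0 to 3 when a library was left out. The FOXO list went from 0 to 7 with DESeq2, 1 with limma-voom and 0 to 8 when a library was left out, and the IGF axis list to 0 to 2. The cause was not tested.

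With the replicate block, 1 gene was called over all genes and 0 of the 10. The numbers were not taken to pair the libraries: same-numbered libraries correlated between -0.03 and 0.18 in their deviations from the group means over 4 pairs, and 2 of 4 KO libraries correlated best with their own number. Irs1, at 12 to 32 reads per library, is the gene whose level this depth limits most.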
